A study of Mus musculus with 6 samples.

Results

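The Hox cluster miRNAs are the small regulatory RNAs cut from hairpins that lie among the homeobox genes, and on this mouse array they were taken as every arm of miR-10, miR-196 and miR-615. They made up 11 of the 1247 mouse miRNAs on the array and 34 of its 3105 probes. Levels were read as fluorescence intensity in 3T3-L1 cells, mouse embryonic fibroblasts that form adipocytes when hormones are added. The IL-6 group was 2 arrays of cells given interleukin-6, an inflammatory cytokine, at 1 ng/ml from the induction of differentiation, and the control group was 4 arrays of cells without it. All 6 arrays came from day 8, and both groups had passed through isobutyl-methylxanthine, dexamethasone, insulin and rosiglitazone. The cells are a single line kept in culture, and the labels leave unstated whether each array stands for its own culture. The p-values therefore measure only the spread among these samples, possibly a technical one.

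In mammals the Hox genes stand in 4 clusters, Hoxa, Hoxb, Hoxc and Hoxd, and their order along the chromosome follows the order in which they are used from head to tail. Cells taken from a body site tend to keep the Hox pattern of that site in culture, and fibroblasts are a textbook case. The miRNAs inside a cluster are often transcribed with their Hox neighbours and also act on Hox messages. The miR-10 family represses Hox genes of the anterior groups in zebrafish, and miR-10b acts on HOXD10 in human breast cancer cells. In mouse embryos miR-196a directs cleavage of the Hoxb8 message, and in mouse white fat progenitors it acts on Hoxc8 during the formation of brown-like adipocytes. miR-615 is encoded inside Hoxc5. Only mature miRNAs were measured, so no level of a Hox gene is given.

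All 11 arms and the positions of the 6 hairpins were found in RefSeq on mouse build GRCm38.p6. The mature sequences of the arms that define each family are printed 5′ to 3′ with the seed, bases 2 to 8, in capitals, because the seed groups them and the remaining bases separate the paralogs. The prefix mmu stands for mouse and is left out from here on.
mmu-miR-10b-5p: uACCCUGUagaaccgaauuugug
mmu-miR-10a-5p: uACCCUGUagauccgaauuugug
mmu-miR-196a-5p: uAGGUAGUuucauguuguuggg
mmu-miR-196b-5p: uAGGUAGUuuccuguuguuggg
mmu-miR-615-3p: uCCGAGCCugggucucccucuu
The seed ACCCUGU was shared by 2 miRNAs on the array, miR-10a-5p and miR-10b-5p, and AGGUAGU by 2, miR-196a-5p and miR-196b-5p. CCGAGCC belonged to 1 miRNA, miR-615-3p. Counted from 1 at the 5′ end, miR-10a-5p and miR-10b-5p differed by the single substitution U12A, and miR-196a-5p and miR-196b-5p by the single substitution A12C. Within each pair the arms had the same seed and the difference lay outside it.

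Mir10b, the Hoxd hairpin, lies on the plus strand at chr2:74726070-74726137, within the annotated bounds of Hoxd3 and Hoxd4. Mir10a, a Hoxb hairpin, lies on the plus strand at chr11:96317165-96317274, within the bounds of Hoxb3 and 992 bases from Hoxb4. Both hairpins are printed with their mature arms in capitals, since they are the hairpins from which an arm was detected on every array.
Mir10b: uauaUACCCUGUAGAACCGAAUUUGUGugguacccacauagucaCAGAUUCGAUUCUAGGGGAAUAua
Mir10a: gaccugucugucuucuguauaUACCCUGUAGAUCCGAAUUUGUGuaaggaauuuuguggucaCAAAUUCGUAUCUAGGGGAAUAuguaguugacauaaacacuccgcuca
The miR-196 hairpins lie between Hox genes and outside the bounds of any of the 39 Hox genes in the table. Mir196a-1 lies at chr11:96265164-96265265 in Hoxb, 6064 bases from Hoxb9 and 68553 bases from Hoxb13. Mir196a-2 lies at chr15:102973350-102973434 in Hoxc, between Hoxc10 at 1451 bases and Hoxc9 at 3597 bases. Mir196b lies on the minus strand at chr6:52230081-52230165 in Hoxa, between Hoxa10 at 1031 bases and Hoxa9 at 2710 bases. Mir615 lies at chr15:103014910-103015001, within the bounds of Hoxc5. The table gives gene bounds without exons, so exonic and intronic positions were not separated. Mature miR-196a-5p is the same RNA from the Hoxb and the Hoxc hairpin, so its probes could not tell these loci apart, whereas the opposite arms, miR-196a-1-3p and miR-196a-2-3p, each have a sequence and probes of their own.

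**Figure D1:**
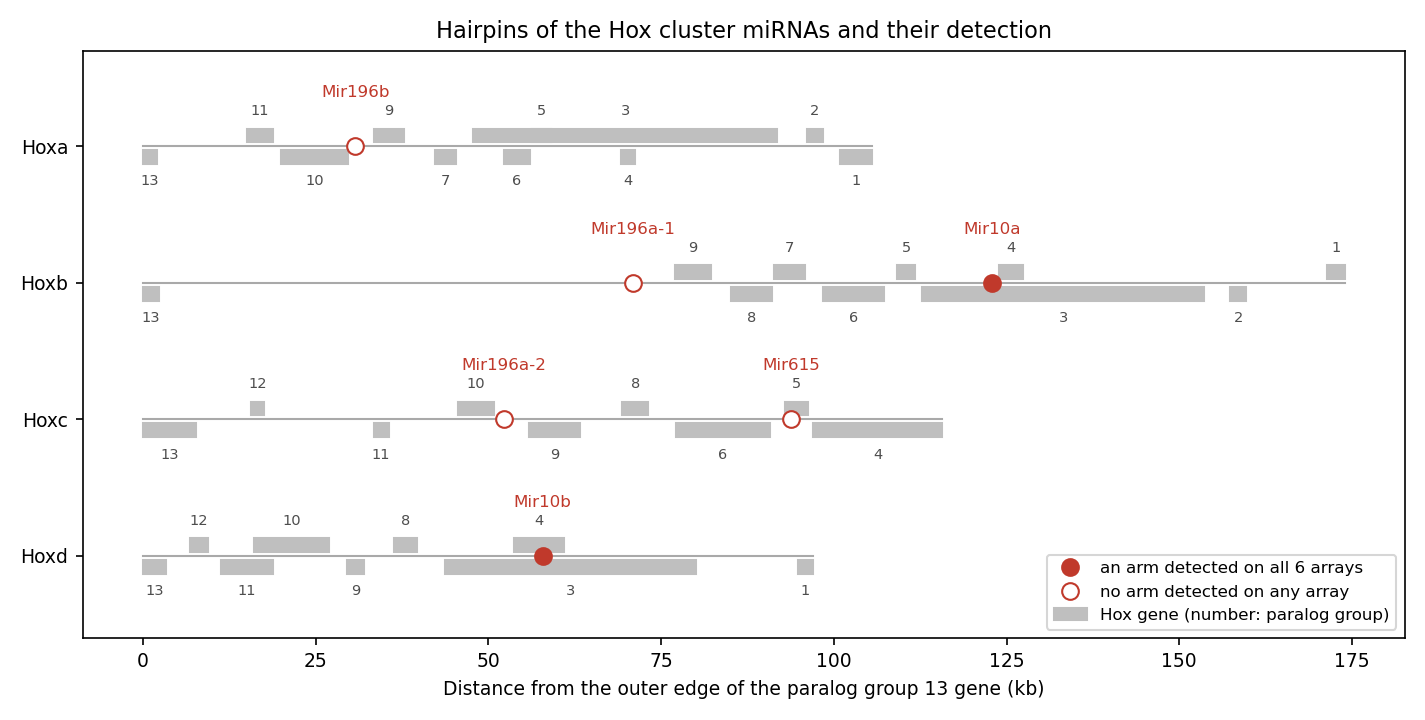
Position of the 6 miRNA hairpins in the 4 mouse Hox clusters, as distance in kb from the outer edge of the paralog group 13 gene, with grey boxes for the annotated bounds of the Hox genes, drawn on both sides of the line only to keep them apart. Filled circles mark Mir10b and Mir10a, with an arm detected on all 6 arrays, and open circles the other 4 hairpins, with no arm detected on any array.

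A probe counted as detected on an array where the scanner software marked a share of 0.5 or more of its used spots as well above background, and a miRNA where at least 1 of its probes was. By this measure the hairpins with a detected arm were Mir10b in Hoxd and, by 1 probe with a single mismatch to miR-10b-5p, Mir10a in Hoxb. The share of miR-10b-5p in the miR-10a-5p signal was not tested. miR-10b-5p and miR-10a-5p were detected on all 6 arrays, so 2 of 11 Hox cluster arms were, beside 264 of 1247 (21.2%) over the whole array. miR-10b-3p, the other arm of the Hoxd hairpin, was detected on 1 array, an IL-6 array. The remaining 8 of 11 arms, with 26 probes, were detected on none of the 6 arrays, beside 930 of 1247 miRNAs over the whole array. No spot of these 8 arms was well above background. These were miR-10a-3p, miR-196a-5p, miR-196a-1-3p, miR-196a-2-3p, miR-196b-5p, miR-196b-3p, miR-615-3p and miR-615-5p. Both detected hairpins lie beside or within genes of paralog groups 3 and 4. The Hox genes nearest to the miR-196 hairpins are of groups 9 and 10. Mir615, also undetected, lies within Hoxc5 and 3095 bases from Hoxc4. Whether detection went with position in the cluster was not tested. The array reads RNA of the whole culture, so fewer cells of a type and less RNA per cell cannot be told apart.

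The level of the undetected arms was set against the negative control spots of the same arrays, which have no mouse target. A weaker flag marks spots whose signal is positive and significant against the local background. It was set on 1653 of 5897 negative control spots (28.0%), with 250 of 980 and 297 of 985 on the IL-6 arrays and between 188 of 986 and 314 of 981 on the control arrays, and none of them was well above background. For miR-196a-5p it was set on 65 of 229 spots (28.4%), for miR-196b-5p on 45 of 225 and for miR-615-3p on 46 of 229 (20.1%). Set against the negative controls of the same array, miR-196a-5p was higher on 4 of 6 arrays, miR-196b-5p on 2 and miR-615-3p on 1. The miR-196a-5p share was 26.3% and 39.5% on the IL-6 arrays, where the negative controls had 25.5% and 30.2%. On control arrays 1 to 4 it was 35.9%, 31.6%, 21.6% and 15.4%, where the lowest negative control share, 19.1%, was that of control array 1. miR-10a-3p stood at 8.70%, miR-196a-1-3p and miR-615-5p at 5.68% each, miR-196a-2-3p at 3.00% and miR-196b-3p at 2.15%. These arms carried the flag less often than the negative controls on every array. Averaged over their probes, miR-196a-5p (0.54 to 1.77), miR-196b-5p (0.34 to 1.19) and miR-615-3p (0.14 to 0.98) were positive on every array. miR-10a-3p ran from -1.43 to 0.47, and the other undetected arms were negative on every array. The 26 probe means of the 8 undetected arms, after scaling, lay between -3.22 and 3.68 on every array, under the floor of 6.25 set for the fit, where negative values come from the subtracted background. Among single probes, the 21-base probe of miR-196a-5p carried the flag on 22 of 56 spots (39.3%), and the 17-base probe of miR-615-3p carried the flag on 31 of 57 spots (54.4%), at a scaled intensity of 1.90 to 3.68, and no spot of either was well above background. The other probes of miR-615-3p carried it on 3 of 58, 2 of 57 and 10 of 57 spots. At this signal over background the 8 arms were not detectable, which is no measure of their absence.

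**Figure D2:**
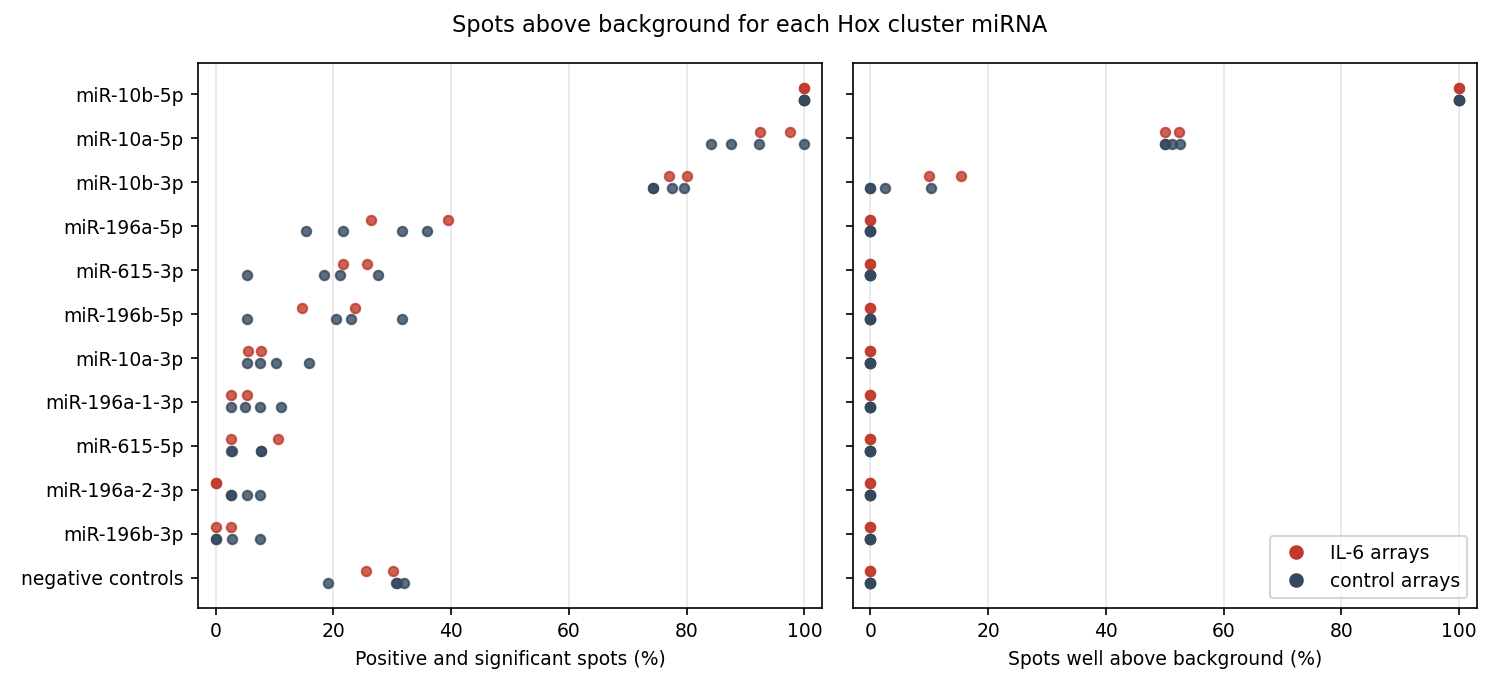
Share of used spots (%) that were positive and significant (left) and well above background (right) for each Hox cluster miRNA and for the negative controls; each point is 1 array, IL-6 arrays in red above control arrays in blue. miR-10b-5p sits at 100% in both panels, miR-10a-5p at 84.2% to 100% on the left and lower on the right, and 8 arms sit at 0 on the right with the negative controls.

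miR-10b-5p was read by a 20-base and a 21-base probe, which pair with its bases 4 to 23 and 3 to 23. They are printed 5′ to 3′ as DNA, beside those of miR-10a-5p, with the base opposite U12A in capitals, because each has 1 mismatch to the other paralog.
miR-10b-5p 21-base probe: cacaaattcggTtctacaggg
miR-10b-5p 20-base probe: cacaaattcggTtctacagg
miR-10a-5p 21-base probe: cacaaattcggAtctacaggg
miR-10a-5p 20-base probe: cacaaattcggAtctacagg
The 21-base probe of miR-10b-5p had a scaled intensity of 787 and 642 on the IL-6 arrays, against 784, 840, 793 and 616 on the control arrays. The means were 714 ± 102 on IL-6 arrays (SD, n = 2) and 758 ± 97.9 on control arrays (SD, n = 4). Its 20-base probe gave 398 and 332 on the IL-6 arrays, against 405, 429, 388 and 332 on the control arrays. Both probes put the arrays of the fourth slide column, IL-6 array 2 and control array 4, lowest in their group, and the groups overlapped. All 229 spots of the miRNA were well above background. Within an array the spots of the 21-base probe varied by 3.02% to 6.32% (coefficient of variation), and between the control arrays their means varied by 12.9%, so the spread between arrays was the larger one.

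miR-10a-5p was read by its 21-base probe, whose 118 used spots were all well above background. That probe had a scaled intensity of 51.1 and 41.9 on the IL-6 arrays, against 47.1, 51.4, 42.1 and 39.1 on the control arrays. The means were 46.5 ± 6.50 on IL-6 arrays (SD, n = 2) and 44.9 ± 5.44 on control arrays (SD, n = 4), and the groups overlapped. The 20-base probe, which lacks 1 base at the end that pairs with base 3 of the miRNA, was detected on none of the 6 arrays. It gave 6.79 and 4.67 on the IL-6 arrays, against 5.57, 7.40, 4.58 and 4.67 on the control arrays, with 1 of 115 spots well above background and 97 of 115 positive and significant. The detection of miR-10a-5p thus rested on 1 of its 2 probes, and its level, the mean of both, is carried by that probe.

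The opposite arm of the Hoxd hairpin, miR-10b-3p, had weak signal. Its sequence and its longest probe are given with the seed in capitals for the RNA and without marks for the probe.
miR-10b-3p: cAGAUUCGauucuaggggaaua
miR-10b-3p 18-base probe: tattcccctagaatcgaa
The 18-base probe had a scaled intensity of 9.85 and 11.5 on the IL-6 arrays, against 9.04, 9.70, 9.23 and 9.85 on the control arrays. All 59 of its spots were positive and significant, and 13 of 59 were well above background. The 17-base probe gave 7.01 and 7.64 on the IL-6 arrays, against 5.70, 7.53, 10.2 and 8.41 on the control arrays, with 57 of 58 spots positive and significant. The 16-base probe gave 5.04 to 5.51 over the 6 arrays with 52 of 60 such spots, and the 15-base probe 0.01 to 1.95 with 14 of 59. Over its 4 probes miR-10b-3p carried the weaker flag on 182 of 236 spots (77.1%), with 74.4% to 80.0% per array, and no array came as low as the 28.0% of the negative controls. The scanner software's own call per miRNA listed it as detected on 5 of 6 arrays, which is 4 more than the share of spots gave. It was not tested, since it was not detected on every array of either group. miR-10a-3p, the same arm of the Hoxb hairpin, differed in this: its flag stood at 5.26% to 15.8% per array, and the scanner software called it on none.

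**Figure D3:**
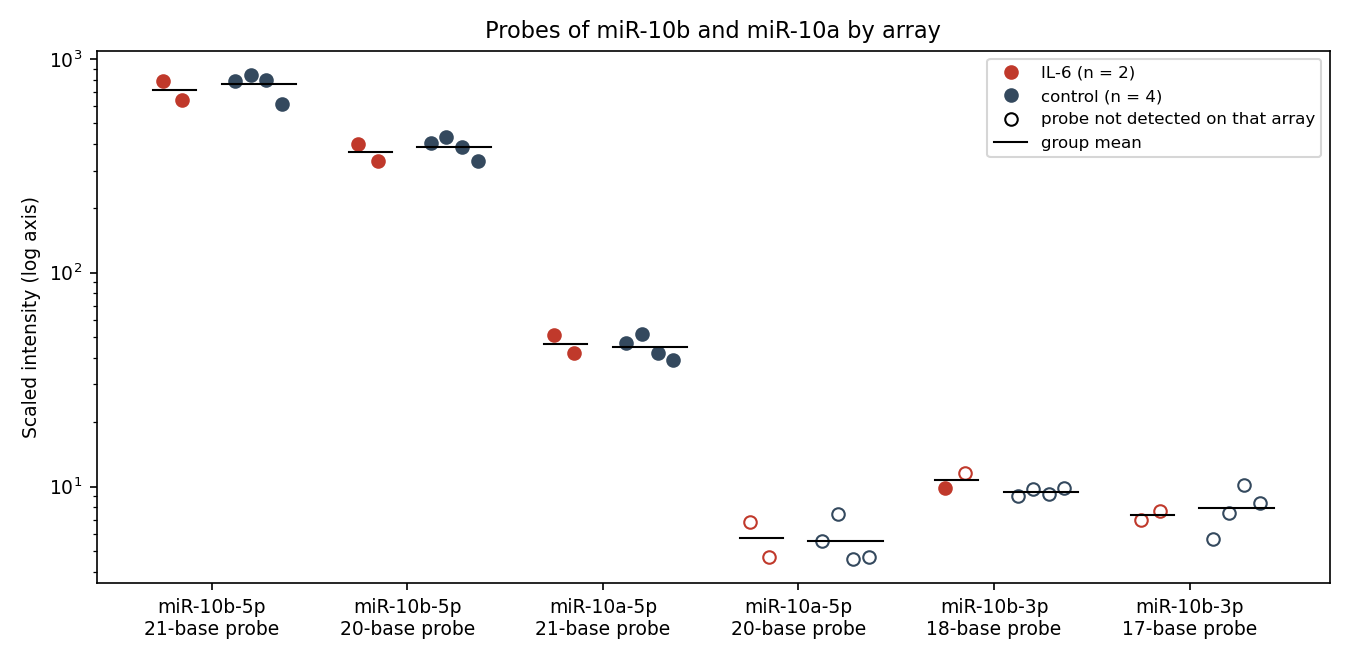
Scaled intensity (log axis) of the probes of miR-10b-5p, miR-10a-5p and miR-10b-3p, 1 point per array, IL-6 left of control, with the group mean as a bar and open points where the probe was not detected on that array. The IL-6 points of both miR-10b-5p and both miR-10a-5p probes lie among the control points, and brightness also depends on the probe sequence, so probes are not ranked against each other.

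The comparison that the series was built for asked which miRNAs differed when IL-6 was present during differentiation. Neither tested Hox cluster miRNA passed the test. The fit was limma's moderated test over the 299 miRNAs detected on all arrays of at least 1 group, on log2 scaled intensity, and p-values were adjusted by Benjamini-Hochberg and called at 0.05. It called 1 of 299 miRNAs (0.334%), and 0 of the 2 tested Hox cluster miRNAs; the other 9 had no value in it. The count over all tested miRNAs moved with the setting, to 34 with no scaling, 31 with spike-in scaling, 31 without control array 4 and 0 without control array 3, and neither member was among the calls in any of them. At an unadjusted p the members were also above 0.05, at 0.569 for miR-10b-5p and 0.757 for miR-10a-5p.

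miR-10b-5p had a log2 level of 9.21 and 8.93 on the IL-6 arrays, against 9.22, 9.31, 9.21 and 8.89 on the control arrays. Both IL-6 values lay inside the range of the control arrays. The means were 9.07 ± 0.20 on IL-6 arrays (SD, n = 2) and 9.16 ± 0.18 on control arrays (SD, n = 4). The log2 difference, IL-6 minus control, was -0.09 ± 0.14 (SE), with a 95% interval of -0.43 to 0.26 and an adjusted p of 0.773 in limma. As a ratio of IL-6 over control this is 0.943, with an interval of 0.741 to 1.20.

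miR-10a-5p had a log2 level of 4.85 and 4.54 on the IL-6 arrays, against 4.72, 4.88, 4.54 and 4.45 on the control arrays. Here too both IL-6 values lay inside the control range. The means were 4.70 ± 0.22 on IL-6 arrays (SD, n = 2) and 4.65 ± 0.19 on control arrays (SD, n = 4). The log2 difference, IL-6 minus control, was 0.05 ± 0.15 (SE), with a 95% interval of -0.32 to 0.42 and an adjusted p of 0.901 in limma. The ratio of IL-6 over control was 1.03, with an interval of 0.799 to 1.34. For both IL-6 arrays to fall outside the control range on the same side was common on these arrays, at 104 of 299 tested miRNAs (34.8%), and it happened for neither member. Differences inside these intervals could not be told from the spread between arrays, and a p above the threshold does not show that the levels were the same.

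Settings that move all miRNAs alike also moved the members, so their differences are given relative to the median of all tested miRNAs. As reported, miR-10b-5p stood at -0.069 from that median and miR-10a-5p at 0.065, on the log2 scale of IL-6 minus control. Without array scaling and with scaling on spike-in probes the median itself moved up by 0.28 and 0.29, and miR-10b-5p stood at -0.059 from it in both. With the percentile over all mouse probes the median moved by -0.11 and neither member moved relative to it. This follows from the method, since a factor per array shifts all miRNAs above the floor alike. Of 19 alternatives with a test, miR-10b-5p lay below the median in 16 and above it in 3, at 0.015 with quantile normalization, 0.038 with the slide column as a block and 0.072 without IL-6 array 2. miR-10a-5p lay above the median in 15 and below it in 4, at -0.012 with quantile normalization, -0.013 with normexp background correction, -0.069 with the replicate block and -0.093 without IL-6 array 1. The 19 are not separate checks of the sign. Rescaling whole arrays moves members and median nearly alike, and dropping the mean trend leaves the differences unchanged. Such settings could hardly turn a sign, so the counts overstate how stable it is. Over these 19 the adjusted p stayed between 0.260 and 0.976 for miR-10b-5p and between 0.417 and 0.931 for miR-10a-5p. The IL-6 arrays lay in 1 row of the slide and the control arrays in the other, so slide row and treatment cannot be told apart. Slide columns 3 and 4 held an array of each group. Within them miR-10b-5p differed by less than 0.01 and by 0.04 on the log2 scale, IL-6 minus control, and miR-10a-5p by 0.31 and 0.09.

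**Figure D4:**
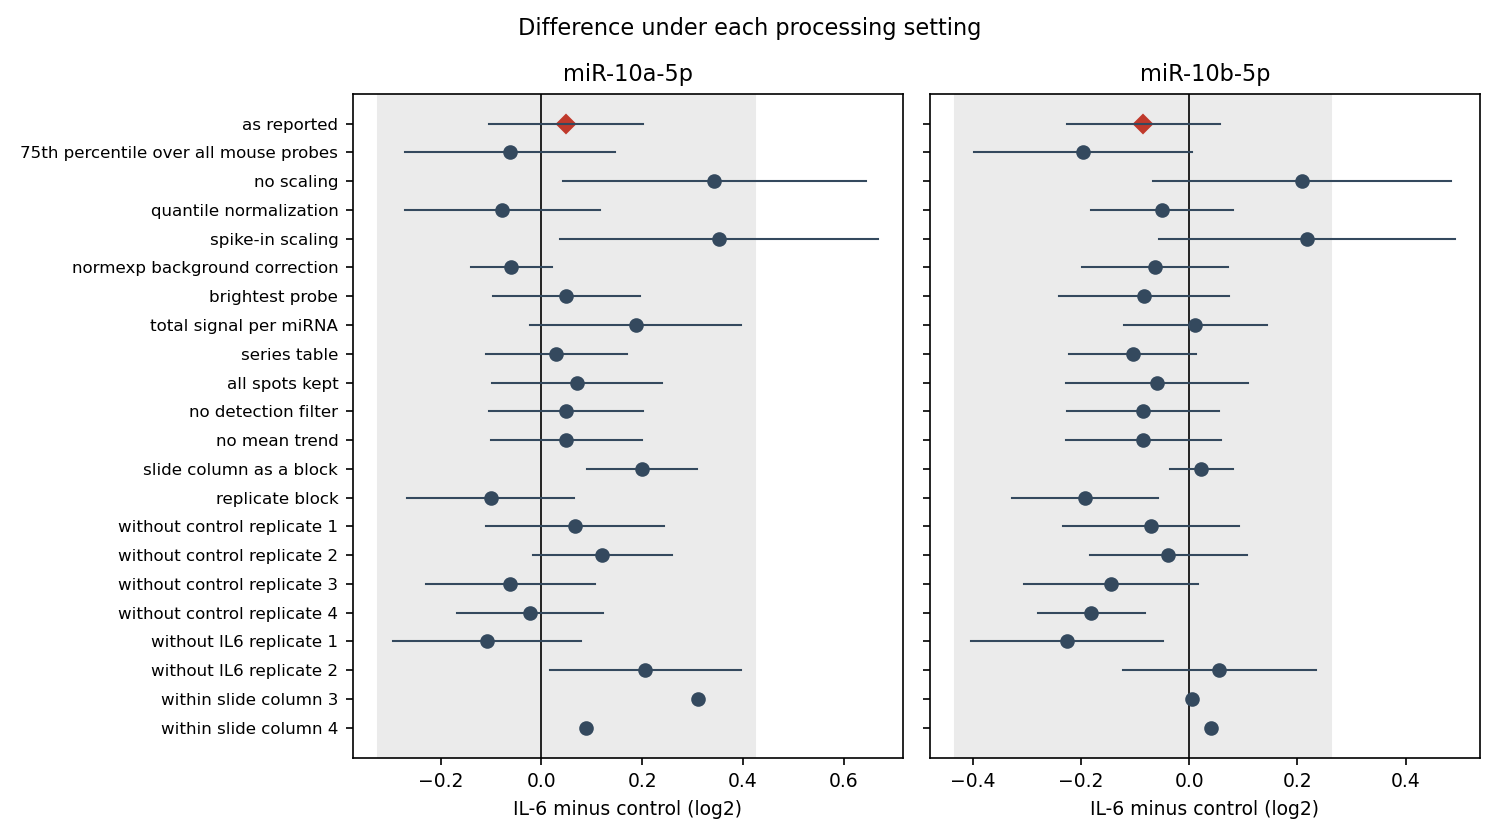
Log2 difference, IL-6 minus control, of miR-10a-5p (left) and miR-10b-5p (right) under each processing setting, with the reported value as a red diamond, lines for 1 standard error, and grey for the 95% interval of the reported value. The points run from -0.11 to 0.35 for miR-10a-5p and from -0.23 to 0.22 for miR-10b-5p, on both sides of 0, while the median of all tested miRNAs moved up by 0.28 and 0.29 with no scaling and spike-in scaling; values within a slide column have no error, since each column holds 1 array per group.

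The closest sequence relatives of miR-10 come from other chromosomes and were all present. miR-100-5p and miR-99a-5p carry the seed ACCCGUA, which 3 miRNAs on the array share, and they are printed because their middle repeats that of miR-10a-5p.
miR-100-5p: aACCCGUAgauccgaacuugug
miR-99a-5p: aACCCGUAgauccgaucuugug
miR-10a-5p and miR-100-5p share a run of 11 bases, GUAGAUCCGAA, at bases 7 to 17 of miR-10a-5p, and miR-99a-5p shares 10 of them. Of the 5 relatives examined, miR-99a, miR-99b, miR-100, miR-125a and miR-125b (5p arms), 5 were detected on all 6 arrays and 0 passed the test. Their median log2 difference was 0.10, with a range of -0.10 to 0.24, against -0.02 over all 299 tested miRNAs. miR-99a-5p had log2 levels of 8.79 ± 0.16 on IL-6 arrays and 8.55 ± 0.13 on control arrays (SD, n = 2 and 4), with an adjusted p of 0.242 in limma. miR-100-5p had 7.61 ± 0.17 on IL-6 arrays and 7.36 ± 0.15 on control arrays, with an adjusted p of 0.267 in limma. miR-125b-5p, with a difference of -0.10, and miR-99b-5p, with 0.10, had adjusted p-values of 0.600 and 0.372 in the same limma fit.

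The miR-196 seed is also found one base further along in the let-7 family, where AGGUAGU occupies bases 3 to 9 of let-7a-5p.
let-7a-5p: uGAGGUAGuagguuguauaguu
All 9 let-7 and miR-98 arms examined were detected on all 6 arrays, while miR-196a-5p and miR-196b-5p were on none. Of these 9, 0 passed the test, with a median log2 difference of 0.02 and a range of -0.09 to 0.20. let-7i-5p stood at the upper end, with log2 levels of 10.6 ± 0.14 on IL-6 arrays and 10.4 ± 0.11 on control arrays (SD, n = 2 and 4) and an adjusted p of 0.265 in limma.

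Of 7 miRNAs from other loci that are reported to act on Hox messages in human or mouse cells, 4 were detected on all 6 arrays and 0 passed the test. These 4 were miR-181a-5p, miR-181b-5p, miR-130a-3p and miR-99a-5p, with log2 differences of 0.04, 0.09, -0.01 and 0.24. The other 3, miR-126-3p, miR-135a-5p and miR-204-5p, were detected on no array. The miRNAs whose log2 levels ran most alike over the 6 arrays were let-7g-5p (Pearson r = 0.97) and miR-221-3p (r = 0.96) for miR-10a-5p. For miR-10b-5p they were miR-350-3p (r = 0.97) and miR-146b-5p (r = 0.97). miR-10a-5p and miR-10b-5p had r = 0.81 with each other, the 16th highest of 296 for miR-10a-5p and the 34th highest for miR-10b-5p. These values are over 6 points that share the array, its scaling and the slide column, and the 2 miRNAs were both low on the arrays of the fourth column.

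Across the series, 313 and 300 miRNAs were detected on the IL-6 arrays, against 268 to 294 on the control arrays, and no spot was saturated. The scaling percentile (the 75th) stood at 440 and 369 on the IL-6 arrays, against 248 to 396 on the control arrays. The labelled cell type was checked against marker miRNAs. The lists held no set for adipocytes, so the check does not cover differentiation. All 7 miRNAs listed as mesenchymal or fibroblast markers were detected on all 6 arrays. Among them were miR-199a-3p at a log2 level of 11.3 to 11.7 and miR-21a-5p at 12.9 to 13.1. How specific these miRNAs are to such cells was not tested. Of the markers of other cell types, 0 of 5 for muscle, 0 of 4 for blood, 0 of 2 for neural cells, 0 of 1 for liver and 0 of 1 for endothelium were detected on any array. Of 6 epithelial markers, miR-205-5p was detected on all 6 arrays, at 6.17 to 6.38, and the other 5 on none.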

How the data were processed

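Per the labels' protocols, total RNA (100 ng) was labelled with Cy3 and hybridised with spike-in RNAs. The submitters' processing notes and the file headers name Agilent Feature Extraction 10.10.1.1 as the scanner software. The deposited intensity values had a fitted background subtracted, per the file headers, so dim spots can be negative, and other deposited columns hold spot flags. Of 49880 spots per array, uneven and outlying ones and the 2164 control spots were left out. Spots of a probe were averaged, and arrays were scaled by the 75th percentile of the 502 probes detected on all arrays. Probes of a miRNA were averaged, values under 6.25 were set to that floor, and log2 was taken, so a change of a dim miRNA is understated. Differences came from limma 3.58.1 in R 4.3.3 (lmFit, eBayes with a mean trend, two-sided, no covariates), checked on simulated data. The same numbers in the titles are not stated to pair arrays. Same-numbered arrays deviated from their group means with r = 0.06 and -0.34, and arrays of the same slide column with 0.41 and 0.51. With 2 IL-6 arrays the deviations of one mirror those of the other, so these values cannot decide on pairing. Sequences and positions came from RefSeq on GRCm38.p6. All 34 probes were exact complements of their arm, and the file positions of 30 lay inside it, those of the 4 miR-196b probes outside. Alternatives changed the scaling, background, probe summary, filters, spread model, blocks and arrays. The members, lists and tests were chosen with earlier results of these data known. Every member was named, with up to 4 examples per list by size of difference and the 2 most alike miRNAs per tested member.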

Additional observations from a re-analysis of the deposited data

How the results depend on the processing

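The detection of 2 Hox cluster miRNAs on all 6 arrays was the same by the scanner software's own call and at a share of 0.9 of the spots. Neither miRNA passed the threshold under any of the 19 alternatives with a test. Signs turned as listed, and part of this is common to all miRNAs: the median of all tested miRNAs moved by -0.11 with all mouse probes, 0.28 with no scaling and 0.29 with spike-in scaling. Relative to it, miR-10a-5p turned in 4 of 19 alternatives and miR-10b-5p in 3. Those that only rescale whole arrays or drop the mean trend could hardly turn a sign. For miR-10a-5p the log2 difference, IL-6 minus control, was -0.062 with all mouse probes in the percentile, -0.077 with quantile normalization, -0.060 with normexp and -0.10 with the replicate block, and leaving out 1 array gave -0.108 to 0.206. It was below 0 without control 3 (-0.062), control 4 (-0.023) or IL-6 array 1 (-0.108), and was 0.31 within slide column 3. For miR-10b-5p it was 0.21 with no scaling, 0.22 with spike-in scaling, 0.011 with the total signal per miRNA, 0.022 with the slide column as a block and 0.056 without IL-6 array 2, and leaving out 1 array gave -0.226 to 0.056. The replicate block gave -0.19 for miR-10b-5p. The numbers share only a label and not a stated source, and no pairing was assumed.

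Over all tested miRNAs the count past the threshold was 1 as reported. It was 2 with all mouse probes, 34 with no scaling, 31 with spike-in scaling, 2 with the brightest probe and 2 with no detection filter. It was 0 with normexp, the total signal, the deposited series table, the slide column block and the replicate block. Leaving out 1 array gave 0 to 31, with 0 without control 3, 31 without control 4, 5 and 4 when IL-6 array 1 or 2 was left out. With no detection filter only the 336 miRNAs above the floor on at least 1 array could be fitted. The cause of these moves was not tested. The number of arrays limits the precision, and signal over background limits the undetected arms.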
